A study of Mus musculus with 15 samples.

Results

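Basement membranes are thin sheets of extracellular matrix that lie under epithelia and around many other cells. Their core is a laminin network, built from trimers of 1 alpha, 1 beta and 1 gamma chain, and a type IV collagen network. Nidogens, perlecan and agrin link these networks, and integrins and dystroglycan tie the sheet to the cell. In the early mouse embryo and in cultures of embryonic stem cells (ESCs), cells of the primitive endoderm lineage are known as strong producers of laminin 111 (Lama1, Lamb1 and Lamc1), type IV collagen (Col4a1 and Col4a2) and Sparc. The 39 genes described here were taken by name as a list of basement membrane and related matrix genes, by a rule that uses no measured value but was drawn up with earlier results of these data known, out of 26061 genes in the table. They hold 6 type IV collagen chains, 10 laminin chains, 8 linkers and other matrix proteins, 10 enzymes and chaperones that fold and cross-link collagen, and 5 receptors of the matrix. All 39 were measured, and all 39 were among the 19490 genes tested.

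The RNA came from E14 cells, a mouse ESC line of the 129/Ola background, grown without feeder cells on gelatin in medium with 15% serum and LIF. Tet1 and Tet2 encode enzymes that oxidise methylated cytosine in DNA. Cells were infected with lentivirus that carried 1 of 3 pLKO.1 short hairpin RNAs, a non-targeting one (shScr), 1 against Tet1 (shTet1) or 1 against Tet2 (shTet2), and were collected after 3 days of puromycin selection that began 24 hours after infection. Each group held 5 libraries, and each target was depleted with a single hairpin sequence, so that an effect of the target and an effect of the hairpin itself cannot be told apart. The labels do not say whether libraries of 1 group came from separate infections, so p-values measure the spread between these libraries, which may be technical.

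Tet1 reads in shTet1 averaged 27.8% of their shScr mean (3877 to 5418 normalised reads against 13120 to 19408), and Tet2 reads in shTet2 averaged 26.6% (2192 to 3081 against 9077 to 11714). A library held 15258291 to 35432425 reads in genes. ESC markers were high everywhere, and the summed normalised reads of 9 genes were 102398 to 120812 in shScr, 112954 to 139878 in shTet1 and 92196 to 111935 in shTet2. The sums of the knockdowns thus did not overlap, and 8 of the 9 genes were lower in shTet2 than in shTet1 on average. With the group as the only term 0 of 9 were called, beside 4.24% of all tested genes. With the replicate number as a further term Dppa5a was called, lower in shTet2, beside 11.2%. The part of these lower values in the differences between the knockdowns was not tested. In 4 libraries (shScr 4, shTet1 3, shTet1 4 and shTet2 4), genes of odorant and pheromone receptors, which belong to sensory neurons, took 53.3 to 63.4 of every 1000000 gene reads, against 9.4 to 26.3 in the other 11. Tagln, a smooth muscle and fibroblast gene, stood at 1457 normalised reads in shScr 5 and 1771 in shTet2 5, against 22.2 to 436 in the other libraries. Of the fibroblast markers, Lum alone was at 0 in every library. Pdgfrb had 40.1 to 158 and Twist1 20 to 74.3 normalised reads, and Col3a1 and Postn reached 74 and 54.4 in shScr 5.

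A few sequences are shown first, because they belong to genes on which the results turn. Col4a1 and Col4a2, the genes of the collagen IV chains found in nearly all basement membranes, lie head to head on chromosome 8 (mm9, GENCODE vM1). Col4a1 (ENSMUSG00000031502.9) runs from 11312826 down to 11198423 on the minus strand, and Col4a2 (ENSMUSG00000031503.7) runs from 11312805 up to 11449287 on the plus strand. Their annotated first exons overlap by 22 bases, which are in capitals in the 30-base stretch below, read on the plus strand.
Col4a1 and Col4a2 starts (chr8:11312801-11312830, mm9): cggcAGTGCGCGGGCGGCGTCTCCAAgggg
The next 3 are the 250 bases before the start of 3 of the 4 members that differed between shTet2 and shTet1, from RefSeq on the GRCm38.p6 build, with capitals for each GC box, the 6 letters GGGCGG or, on the other strand, CCGCCC. Itga6 is the fourth such member.
Serpinh1 (chr7:99353240-99353489, minus strand): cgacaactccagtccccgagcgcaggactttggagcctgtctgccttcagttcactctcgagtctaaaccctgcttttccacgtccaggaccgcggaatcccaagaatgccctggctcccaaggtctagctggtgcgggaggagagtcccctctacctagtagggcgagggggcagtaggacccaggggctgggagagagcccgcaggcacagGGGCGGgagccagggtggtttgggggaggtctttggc
P4ha2 (chr11:54100674-54100923, plus strand): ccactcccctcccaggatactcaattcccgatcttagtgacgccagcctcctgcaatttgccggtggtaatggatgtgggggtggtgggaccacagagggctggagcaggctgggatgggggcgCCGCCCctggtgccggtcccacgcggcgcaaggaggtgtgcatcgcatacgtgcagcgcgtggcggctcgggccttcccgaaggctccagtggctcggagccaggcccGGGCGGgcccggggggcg
Lamb2 (chr9:108479612-108479861, plus strand): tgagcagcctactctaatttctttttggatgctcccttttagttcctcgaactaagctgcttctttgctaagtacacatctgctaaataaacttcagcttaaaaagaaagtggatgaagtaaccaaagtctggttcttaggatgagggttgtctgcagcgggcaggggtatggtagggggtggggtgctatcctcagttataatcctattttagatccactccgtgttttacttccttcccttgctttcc
The Serpinh1 window held 1 GC box and 11 CpG sites, the P4ha2 window 2 and 21, and the Lamb2 window 0 and 3. Such windows were found for 26 of the 39 members (31 windows, as some genes have several starts). A GC box was in 21 of the 31 (67.7%), against 32.7% of all 32851 windows of the same length. The letters AGATAA, a motif of GATA factors, were in 0 of 31 on either strand, against 9.99% of all windows, and the median number of CpG sites was 14 against 6. These are descriptions of the letters in the windows and say nothing of what binds there.

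Levels of the members spanned a wide range. Levels are given as normalised reads per 1000 exon bases, so that genes of different length can be set roughly side by side. Normalised reads are reads divided by the library's scaling factor in the deposited table. Exon bases are those of all annotated exons of a gene, merged over its transcripts, which can be more than a single mRNA holds. In shScr, the highest were Fn1 (fibronectin, a matrix glycoprotein that cells bind through integrins) at 1358 ± 476, Itgb1 (the beta chain of most matrix-binding integrins) at 1274 ± 341, Nid2 (nidogen 2, a linker) at 1266 ± 289, Col18a1 (the collagen XVIII core protein) at 1146 ± 271, Sparc (a collagen-binding glycoprotein) at 1099 ± 208 and Lamc1 (the laminin gamma 1 chain) at 957 ± 181 normalised reads per 1000 exon bases (SD, n = 5 each). The lowest were Col4a3 and Col4a4, chains known from the mature kidney filter, at 0.158 ± 0.219 and 0.080 ± 0.179 on the same scale. In the shScr order of all 39, no gene was separated from the one below it, since the library values of each pair of neighbours overlapped. In total, 27 members had a mean of at least 100 normalised reads over the 15 libraries and 12 fell below it (Col4a3, Col4a4, Col4a5, Col4a6, Lama2, Lama4, Lamb3, Lamc3, Col15a1, P4ha3, Lox and Loxl1).

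**Figure D1:**
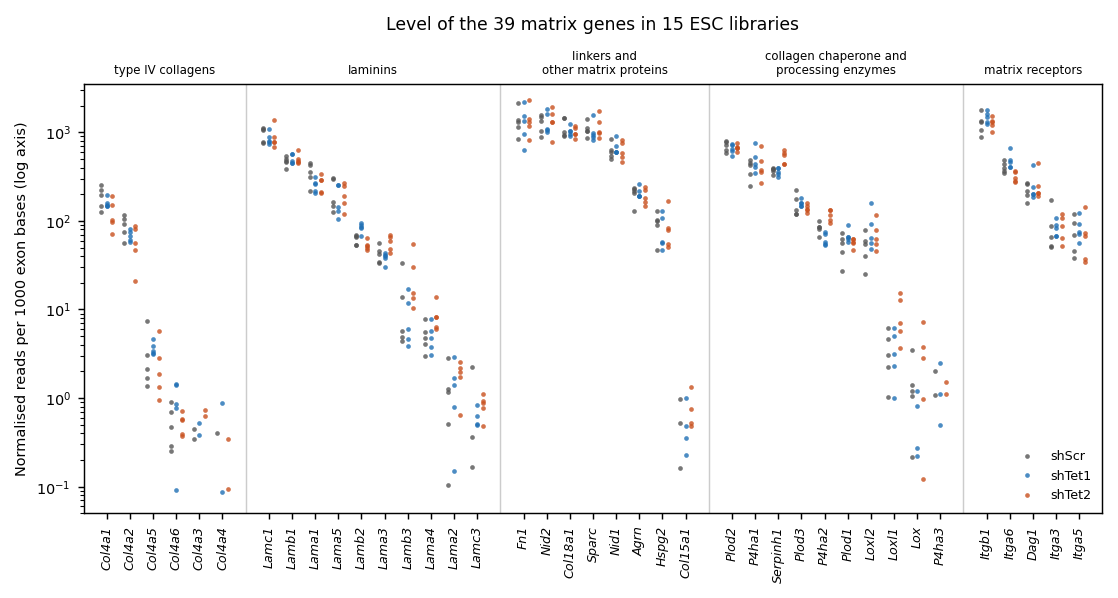
Normalised reads per 1000 exon bases (log axis) of each of the 39 members in each of the 15 libraries, coloured by group and ordered by the shScr mean within each role; a library with 0 reads has no point. The 12 members under 100 normalised reads on average lie at the low end of their roles, some of them overlapping higher members, and the 3 groups overlap for nearly all members.

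By reads per merged exon base, the chains of a trimer were not at equal levels. Per exon base, Lamb1 was 1.43 ± 0.513 times Lama1 in shScr, 2.03 ± 0.416 times for shTet1 and 1.92 ± 0.266 times for shTet2 (SD, n = 5 each). Lamc1 was 2.83 ± 0.705, 3.43 ± 0.503 and 3.36 ± 0.524 times Lama1 in the same order. Col4a1 was 2.17 ± 0.457, 2.33 ± 0.183 and 2.26 ± 0.649 times Col4a2 in the same order; the usual collagen IV trimer is made of 2 alpha 1 chains and 1 alpha 2 chain. These ratios depend on the merged exon lengths and were not tested. Lamb1 exceeded Lamb2, the beta chain of later basement membranes, 7.74 ± 1.47 times for shScr, 6.01 ± 1.31 times for shTet1 and 9.62 ± 2.11 times for shTet2, and Lama1 exceeded Lama5 1.79 ± 0.341 times for shScr. The receptor chains Itgb1 and Itga6 stood at a ratio of 3.11 ± 0.479 for shScr, 3.14 ± 0.620 for shTet1 and 4.08 ± 0.420 for shTet2.

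With the group as the only term, no member was called in either knockdown when set against shScr, and 4 members differed between the 2 knockdowns. Differences are on the deposited variance-stabilised log2 scale, which understates the change of low genes, and a member was called at a Benjamini-Hochberg adjusted p under 0.05 over all 19490 genes (limma, two-sided). In shTet1 against shScr, 0 of 39 members were called, against 0.0718% of all tested genes (14), and 3 members had an unadjusted p under 0.05, with 2295 such genes in all. In shTet2 against shScr, 0 of 39 were called, against 0.39% of all tested genes (76), and 8 members had an unadjusted p under 0.05, with 2257 genes in all. In shTet2 against shTet1, 4 of 39 (10.3%) were called, 2 higher and 2 lower in shTet2, against 4.24% of all tested genes (827). The median difference of the 39 members was 0.07, 0.05 and 0.04 in these comparisons, against 0.01, 0.04 and 0.01 over all tested genes, and no member differed by more than 1 unit in any of them. The comparisons share libraries, so their values are set side by side and not counted as separate evidence.

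**Figure D2:**
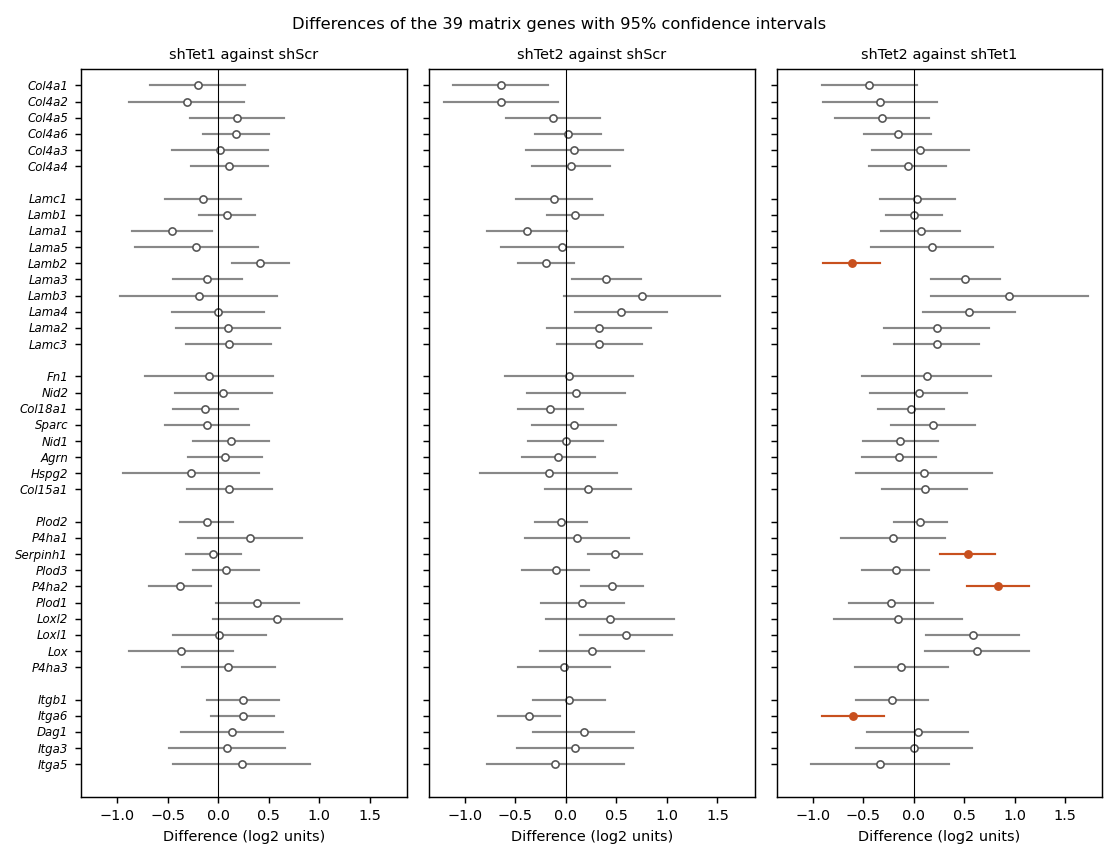
Difference of each of the 39 members in log2 units (point) with its 95% confidence interval (line) in the comparison named above each panel, by role; filled points are members with an adjusted p under 0.05. Only the third panel holds filled points, Serpinh1 and P4ha2 to the right and Lamb2 and Itga6 to the left of 0.

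Deviations of same-numbered libraries went together for shTet1 with shScr and for shTet2 with shTet1 (described with the processing). Some libraries went together as much across numbers, mainly those numbered 1 and 2 but also shTet2 5 with shTet1 3. Calls made with the number as a block thus depend on taking it as a pairing. With the replicate number as a block, 1 of 39 members was called in shTet1 against shScr (Lamb2), against 4.8% of all tested genes. In shTet2 against shTet1, 9 of 39 (23.1%) were called with the block, 7 higher and 2 lower in shTet2, against 11.2% of all tested genes. They were the 4 called without it and Lama3, Lama4, Lamb3, Lox and Loxl1, each higher in shTet2. In shTet2 against shScr the same fit called 5 of 39 (12.8%), against 4.31% of all tested genes. These were Serpinh1, P4ha2, Loxl1, Lama4 and Lamb3, all higher in shTet2. Same-numbered libraries of replicate 3 correlated at only 0.008 between these 2 groups. Library values of the groups did not overlap for 0 of 39 members in shTet1 against shScr, where 2.62% of all tested genes did not overlap. They did not overlap for 1 member in shTet2 against shScr (Serpinh1), against 2.7% of genes, and for 5 in shTet2 against shTet1 (the 4 called members and Lama3), against 6.04% of genes.

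A pair of the called members act on collagen inside the cell. Serpinh1 (ENSMUSG00000070436.5, chromosome 7, 106493885 to 106501740, mm9, minus strand, 6 exons) encodes HSP47, the chaperone of the endoplasmic reticulum that binds procollagen. Its normalised reads in replicates 1 to 5 were 928, 808, 889, 927 and 962 for shScr, 760, 859, 968, 973 and 815 for shTet1, and 1535, 1356, 1074, 1410 and 1078 for shTet2. All 5 shTet2 libraries lay above all 10 others. It rose by 0.53 (95% CI 0.26 to 0.80, adjusted p = 0.0211) from shTet1 to shTet2, where mean reads were 1.48 times higher. Against shScr the difference was 0.49 (95% CI 0.22 to 0.76, adjusted p = 0.106), with an exact permutation p of 0.00794, the smallest that 5 against 5 libraries can give, in both comparisons.

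P4ha2 (ENSMUSG00000018906.8, chromosome 11, 53913597 to 53945167, plus strand) encodes an alpha subunit of prolyl 4-hydroxylase, which hydroxylates collagen prolines so that the triple helix is stable. Its normalised reads were 527, 413, 530, 615 and 502 for shScr, 332, 339, 470, 446 and 363 for shTet1, and 833, 733, 584, 836 and 644 for shTet2. The shTet2 libraries lay above every shTet1 library, and shScr lay between them, overlapping both. From shTet1 to shTet2, P4ha2 rose by 0.84 (95% CI 0.53 to 1.15, adjusted p = 0.00220), 1.86 times in mean reads. The differences from shScr were −0.38 in shTet1 (adjusted p = 0.298) and 0.46 in shTet2 (adjusted p = 0.195), of opposite sign and neither called in this fit. P4ha1, which encodes the other main alpha subunit, went the other way without passing the test, at 2039 ± 673 normalised reads for shTet1 and 1789 ± 689 for shTet2 (SD, n = 5 each, difference −0.21, adjusted p = 0.791). Per exon base, P4ha1 stood at 4.87 ± 1.57 times P4ha2 in shScr, 8.33 ± 3.83 times in shTet1 and 3.75 ± 1.19 times for shTet2. The shTet1 ratios ran from 4.83 to 14.3.

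A laminin chain and an integrin chain were lower in shTet2 than in shTet1. Lamb2 (ENSMUSG00000052911.4, chromosome 9, 108382193 to 108392861, plus strand) had 372, 301, 299, 376 and 391 normalised reads in shScr, 511, 530, 385, 471 and 483 for shTet1, and 265, 295, 275, 356 and 301 for shTet2. Every shTet1 library was above every shTet2 library, and 4 of the 5 were above all of shScr. Lamb2 fell by 0.61 from shTet1 to shTet2 (95% CI −0.89 to −0.33, adjusted p = 0.0122), to 62.7% of the shTet1 mean. Between shTet1 and shScr the difference was 0.42 (95% CI 0.13 to 0.70, adjusted p = 0.202), which was called with the replicate block (adjusted p = 0.0446). Against shScr, shTet2 differed by −0.20 (adjusted p = 0.635).

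Itga6 (ENSMUSG00000027111.8, chromosome 2, 71583673 to 71696473, plus strand), the alpha chain of the laminin receptor integrin alpha 6 beta 1, had 3951, 3165, 3527, 3307 and 4354 normalised reads in shScr, 6003, 4344, 3677, 3679 and 4185 for shTet1, and 2546, 2717, 3183, 2449 and 3295 for shTet2. The shTet2 libraries were below all shTet1 libraries and overlapped shScr. It fell by 0.60 from shTet1 to shTet2 (95% CI −0.91 to −0.30, adjusted p = 0.0227), to 64.8% of the shTet1 mean. Its differences from shScr were 0.24 in shTet1 (adjusted p = 0.569) and −0.36 in shTet2 (adjusted p = 0.333). Itgb1, its partner chain, differed by −0.21 between shTet2 and shTet1 (95% CI −0.57 to 0.14, adjusted p = 0.633), with library values that overlapped in all 3 groups.

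**Figure D3:**
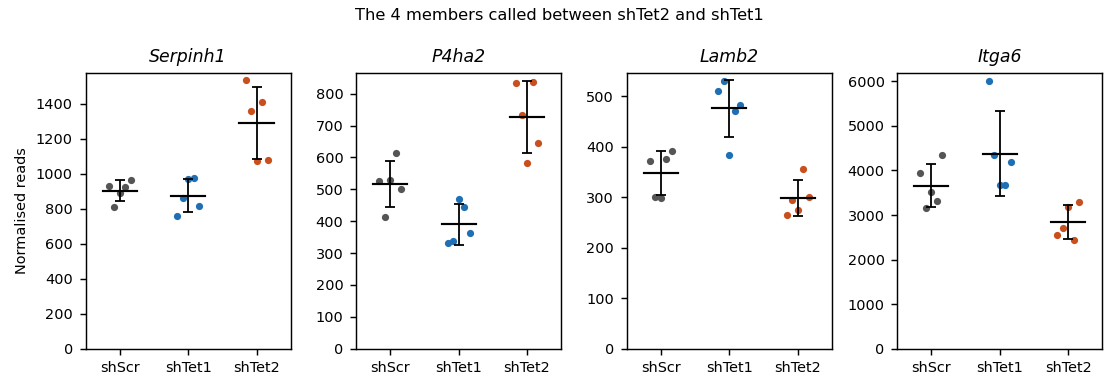
Normalised reads of Serpinh1, P4ha2, Lamb2 and Itga6 in each library (points) with the group mean and SD (bars, n = 5). In each panel the shTet2 points do not overlap the shTet1 points, and for Serpinh1 they also lie above all shScr points.

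These calls differed in how far they held when libraries were left out. P4ha2 and Lamb2 stayed called in all 15 fits that left out 1 library, with adjusted p up to 0.00952 and 0.0416. The calls of Serpinh1 and Itga6 were lost when shTet1 1, shTet1 2, shTet2 1, shTet2 2 or shTet2 4 was left out. Their adjusted p then rose to at most 0.0693 and 0.0650. Those single-library fits called 2.63% to 3.01% of all tested genes, against 4.24% with all 15 libraries. Both calls were also lost without the 4 libraries high in receptor reads, which left 2 of 39 called. That fit called 345 of all tested genes (1.77%). Within replicates 1 and 2 the differences were 0.81 for Serpinh1, 1.14 for P4ha2, −0.82 for Lamb2 and −0.95 for Itga6. Within replicates 3 to 5 they were 0.35, 0.64, −0.48 and −0.38, with the same signs and no call in either subset. Over all 19490 tested genes, these fits called 0 within replicates 1 and 2 and 143 (0.734%) within replicates 3 to 5.

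Another 5 members were called between the knockdowns with the replicate block and not without it, and all but Lama3 were at low levels. One of them, Loxl1, was also called with the split of replicates 1 and 2 from 3 to 5 as a term. Lama3, the alpha chain of epithelial laminin 332, had 448, 363, 486, 589 and 348 normalised reads in shScr, 453, 321, 405, 432 and 423 for shTet1 and 619, 508, 723, 687 and 458 for shTet2. Its shTet2 libraries were all above its shTet1 libraries, by a narrow margin. The difference was 0.51 (95% CI 0.17 to 0.85), with an adjusted p of 0.0942 without and 0.00834 with the block.

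Lamb3, the beta chain of the same trimer, had 19.5, 25.1, 60.6, 144 and 21.6 normalised reads in shScr, 26.3, 52, 20.4, 74.7 and 16.9 for shTet1 and 67.3, 133, 59.1, 238 and 45.8 for shTet2. It was higher in shTet2 in 5 of 5 same-numbered pairs, while the groups overlapped. The difference was 0.94 (95% CI 0.17 to 1.72), with an adjusted p of 0.195 without and 0.00550 with the block. Replicate 4 held its highest value in every group, and those libraries are 3 of the 4 high in receptor reads. Lama4, an alpha chain of vessel laminins, had 49.1, 36.4, 57.1, 93.2 and 67.8 normalised reads in shScr, 37.2, 68.9, 57.5, 95.4 and 45.1 for shTet1 and 73.6, 100, 101, 169 and 76 for shTet2. Its value too was highest in replicate 4 of each group, and its difference of 0.55 (95% CI 0.09 to 1.00) had an adjusted p of 0.201 without and 0.0218 with the block. The part of the receptor reads in these differences was not tested, beyond the fit without those 4 libraries.

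Loxl1 and Lox encode enzymes that oxidise lysines for the cross-linking of collagen and elastin. Loxl1 had 20.5, 7.5, 3.4, 15.5 and 10.3 normalised reads in shScr, 16.8, 20.7, 7.7, 10.4 and 3.4 for shTet1 and 50.7, 43.1, 19.2, 23.4 and 12.3 for shTet2. It was higher in shTet2 in 5 of 5 pairs, by 0.58 (95% CI 0.13 to 1.04), with an adjusted p of 0.170 without and 0.0248 with the block. Lox had 1, 5, 5.7, 6.7 and 16.4 normalised reads in shScr, 0, 3.8, 1.3, 1 and 5.6 for shTet1 and 13.5, 4.6, 17.7, 0.6 and 33.5 for shTet2. It rested on 0 to 5 reads in the shTet1 libraries, so its size is poorly known; the difference was 0.63 (95% CI 0.12 to 1.15), with an adjusted p of 0.191 without and 0.0431 with the block.

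The 2 main collagen IV chains were lower in shTet2 than in shScr on average, without passing the test. Col4a1 had 1739, 1322, 999, 868 and 1529 normalised reads in shScr, 1026, 1076, 994, 1014 and 1331 for shTet1 and 660, 482, 699, 1021 and 1300 for shTet2. The 3 lowest of the 15 values were shTet2 1, 2 and 3, while shTet2 4 and 5 lay inside the shScr range. The difference from shScr was −0.65 (95% CI −1.12 to −0.18, adjusted p = 0.238, exact permutation p = 0.0714). Col4a2 had 696, 770, 370, 499 and 605 normalised reads in shScr, 387, 495, 405, 450 and 540 for shTet1 and 308, 139, 376, 542 and 578 for shTet2. The lowest value, in shTet2 2, was the same library as for Col4a1, and the difference was also −0.65 (95% CI −1.21 to −0.08, adjusted p = 0.352). Within replicates 1 and 2 the Col4a1 and Col4a2 differences were −1.37 and −1.65, and within replicates 3 to 5 they were −0.16 and 0.02, so the pooled values rested on the first 2 replicates. In shTet1 against shScr the differences were −0.20 and −0.31 (adjusted p 0.796 and 0.721). The other 4 chains had 0 to 50.3 normalised reads in any library, and Col4a3 was at 0 reads in 9 libraries and Col4a4 in 10.

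None of the 3 chains of laminin 111 was called in any comparison, and differences between the chains were not tested. Lama1 (chromosome 17, 68046605 to 68171985) had 4082, 4265, 2085, 3389 and 2995 normalised reads in shScr, 2522, 2941, 1966, 2463 and 2093 for shTet1 and 1999, 1960, 3207, 2723 and 2778 for shTet2. Values of the 2 knockdowns fell within or below the shScr range and overlapped it. The differences from shScr were −0.45 in shTet1 (95% CI −0.85 to −0.06, adjusted p = 0.343), lower in 5 of 5 same-numbered pairs, and −0.39 in shTet2 (95% CI −0.78 to 0.01, adjusted p = 0.444). Lamb1 had 5392, 4552, 4971, 3821 and 4646 normalised reads in shScr, 4501, 5570, 5602, 4649 and 4470 for shTet1 and 4600, 4455, 6325, 4656 and 4896 for shTet2. Lamb1 was among the steadiest members, with group means of 4676 ± 580, 4958 ± 577 and 4987 ± 765 (SD, n = 5 each) and differences from shScr of 0.09 in both knockdowns (95% CI −0.19 to 0.36 in each). Lamc1 had 9177, 6377, 6201, 9069 and 8751 normalised reads in shScr, 8931, 7368, 6504, 6533 and 6054 for shTet1 and 5689, 6347, 11237, 6462 and 7318 for shTet2. Its differences from shScr were −0.15 (95% CI −0.53 to 0.22) in shTet1 and −0.12 (95% CI −0.49 to 0.26) in shTet2. The remaining laminin chains were Lama5, at 1206 to 3444 normalised reads with overlapping groups, and Lama2 and Lamc3, at 0 to 28.1.

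Among the linkers, none was called in any comparison with or without the block. Nid1 (nidogen 1, which joins laminin to collagen IV) had 3255, 3042, 3661, 3777 and 5117 normalised reads in shScr, 5540, 3615, 3651, 3576 and 4211 for shTet1 and 2799, 3158, 4890, 3491 and 4598 for shTet2. The groups overlapped, and the differences from shScr were 0.13 (95% CI −0.24 to 0.50) in shTet1 and 0.00 (95% CI −0.38 to 0.37) in shTet2. Sparc had 3802, 3489, 3465, 2925 and 4816 normalised reads in shScr, 2945, 2756, 3271, 3098 and 5286 for shTet1 and 3432, 2894, 4424, 3312 and 5795 for shTet2. Replicate 5 was the highest Sparc library of every group, and replicate 5 of shScr and shTet2 were also the libraries highest in Tagln; the part of these in the Sparc values was not tested. Fn1 had 10938, 9481, 6998, 17711 and 11520 normalised reads in shScr, 18130, 12662, 7941, 11059 and 5290 for shTet1 and 6909, 11767, 19118, 11013 and 9702 for shTet2. Fn1 was over 3 times higher in shTet1 1 than in shTet1 5, and its group means of 11330 ± 3972, 11016 ± 4888 and 11702 ± 4540 (SD, n = 5 each) differed by far less than that spread, with differences from shScr of −0.09 (95% CI −0.73 to 0.54) and 0.03 (95% CI −0.60 to 0.67). Hspg2 (perlecan) ranged from 675 to 2384 normalised reads, Agrn (agrin) from 1025 to 2082, Nid2 from 3773 to 9345 and Col18a1 from 5945 to 10137, each with overlapping groups, and Col15a1 from 0 to 8.6.

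The other processing enzymes and receptors did not pass the test either. Plod1, Plod2 and Plod3, the lysyl hydroxylases of collagen, differed from shScr by 0.39, −0.11 and 0.08 for shTet1 and by 0.16, −0.05 and −0.10 in shTet2 (adjusted p 0.460 to 0.938). Loxl2, a lysyl oxidase-like enzyme that acts on collagen IV, stood at 277 ± 109 normalised reads for shScr, 449 ± 244 for shTet1 and 383 ± 150 for shTet2 (SD, n = 5 each). Its difference of 0.59 between shTet1 and shScr (adjusted p = 0.473) was 1.48 within replicates 1 and 2 and −0.01 within replicates 3 to 5. P4ha3 was at 0 reads in 8 of 15 libraries. Of the receptors, Itga3 differed from shScr by 0.09 in both knockdowns, Itga5 by 0.23 in shTet1 and −0.10 in shTet2, and Dag1, which encodes dystroglycan, by 0.14 and 0.17, with every adjusted p at 0.855 or above.

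Much of the spread of the well-covered members lay between libraries of the same group. The library shTet2 3 held the highest of the 15 values for 8 of the 27 members with a mean of at least 100 normalised reads (Lama3, Lamb1, Lamc1, Nid2, Hspg2, Fn1, Itga5 and Dag1), and shTet1 1 for 6 others (Nid1, Agrn, P4ha1, Plod1, Loxl2 and Itga6). The library shTet2 2 held the lowest value of Col4a1, Col4a2 and Lama1. Against the shScr mean, single values ranged from −1.80 for Col4a2 in shTet2 2 to 1.59 for Loxl2 in shTet1 1.

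**Figure D4:**
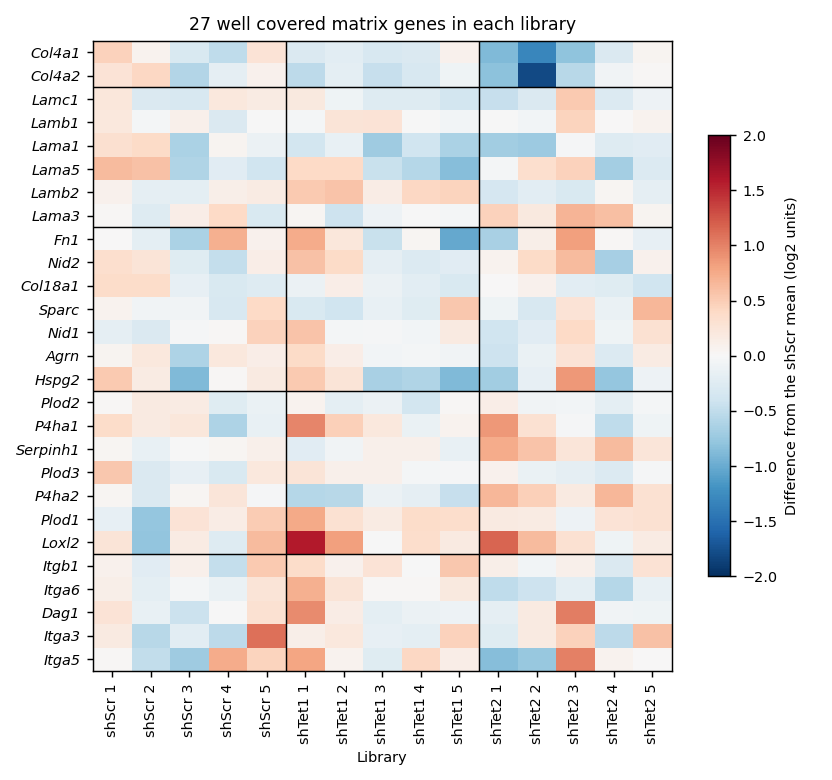
Difference of each library from the shScr mean in log2 units for the 27 members with a mean of at least 100 normalised reads, ordered by role (rows) and group (columns, replicates 1 to 5). Serpinh1 and P4ha2 are above 0 in all 5 shTet2 libraries and Col4a1 and Col4a2 are lowest in shTet2 2, while most other rows vary as much within groups as between them.

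Pairs of genes were then compared across libraries, after subtracting each group's mean, so that the correlation describes libraries of the same group (n = 15, permutation within groups with 100000 resamples, 6 pairs). Col4a1 and Col4a2, the head-to-head neighbours, varied together, with Pearson's r of 0.859 (permutation p = 0.00145, adjusted p = 0.0087) and Spearman's rho of 0.871. Lama1 varied with Gata6, a transcription factor of primitive endoderm, with r of 0.745 (permutation p = 0.00778, adjusted p = 0.0233) and rho of 0.771. Without the 2 libraries farthest from the median of the first gene, r was 0.788 for Col4a1 with Col4a2 and 0.587 for Lama1 with Gata6, and the adjusted p of both r values rose to 0.0724, while that of rho was 0.0247 and 0.0909. Within replicates 1 and 2 the r values were 0.639 and 0.504 (6 libraries). There, 2 libraries a group allow too few permutations for any r to pass the test. Within replicates 3 to 5 the r values were 0.819 and 0.643 (9 libraries), neither past the test in so few libraries. For the other pairs, r was 0.378 between Lamb1 and Lamc1, 0.267 between Lama1 and Lamb1, 0.437 between Col4a1 and Lama1 and 0.064 between Lama1 and Sparc, and none passed the test. Libraries share their depth and their preparation, which can move genes together. The permutation moved libraries freely within each group. It took no account of same-numbered libraries going together across groups, so these p-values may be too small.

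**Figure D5:**
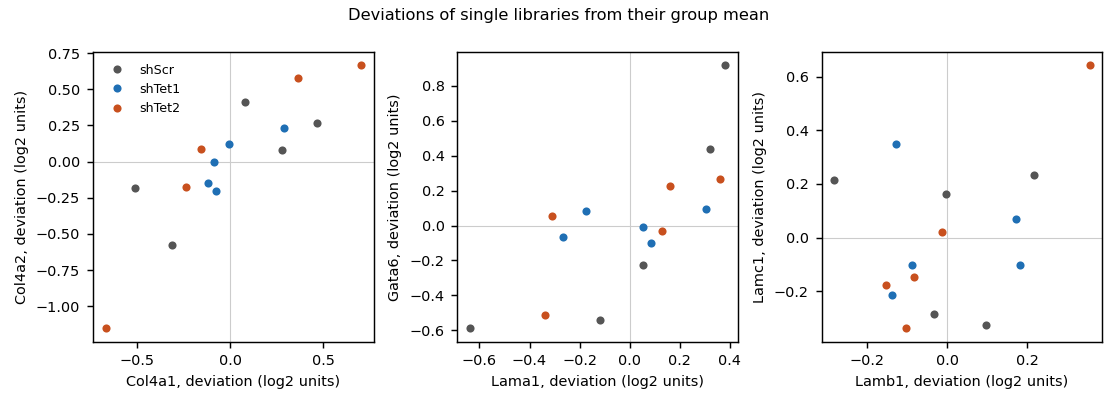
Deviation of each library from its group mean in log2 units for Col4a1 against Col4a2, Lama1 against Gata6 and Lamb1 against Lamc1, coloured by group (15 libraries a panel). The Col4a1 and Col4a2 points run along a diagonal (r = 0.859), the Lama1 and Gata6 points less tightly (r = 0.745), and the Lamb1 and Lamc1 points scatter.

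Primitive endoderm cells make much of the collagen IV and laminin 111 of the early embryo, so their markers are given beside these genes. The summed normalised reads of 22 such markers were 5150 to 10415 in shScr, 2965 to 6332 in shTet1 and 2796 to 7579 in shTet2, mostly from Lrp2. With the group as the only term, 0 of 22 were called in any comparison. Of all tested genes, that fit called 0.0718% in shTet1 against shScr, 0.39% in shTet2 against shScr and 4.24% in shTet2 against shTet1. With the replicate block, 0 of 22 were called in shTet1 against shScr and 6 in shTet2 against shTet1. The 6 were 27.3%, beside 11.2% of all tested genes, with Amn, Dab2, Pdgfra and Ttr lower and Hnf4a and Stra6 higher in shTet2. Amn, Ttr and Stra6 had at most 24.5, 6.6 and 20.8 normalised reads in either knockdown, so their differences rest on few reads. In shTet2 against shScr the same fit called 5 (22.7%, beside 4.31%). These were Amn, Cubn, Dab2, Pdgfra and Sox7, all lower in shTet2. Gata6 had 37.7 to 164 normalised reads in shScr, 43.1 to 53.6 in shTet1 and 13.1 to 39.9 in shTet2 (difference from shScr −0.81 in shTet2, adjusted p = 0.172), and Gata4 had 30.8 to 85.3, 29.2 to 47.3 and 4.6 to 54.2. In bulk RNA, fewer cells of a type and less RNA per cell cannot be told apart, and the part of such cells in the Col4a1, Col4a2 and Lama1 values was not tested. Fibroblast markers summed to 173 to 1999 normalised reads. Endothelial markers summed to 2149 to 4538 normalised reads in shScr, 2074 to 3610 in shTet1 and 3083 to 5916 in shTet2, mostly from Pecam1 and Tek, and all 8 had a higher mean on the log2 scale in shTet2 than in shTet1. These differences ran from 0.01 for Tie1 to 1.07 for Tek, with Egfl7 at 0.02 and Emcn at 0.04. Of these 8, only Tek, a receptor kinase of vessels, was called between shTet2 and shTet1 (adjusted p = 0.00298), beside 4.24% of all tested genes. With the replicate block Tek and Pecam1 were called, beside 11.2%. Kdr had 30 to 227 and Egfl7 302 to 554 normalised reads. Cdh5, Tie1, Emcn and Erg had at most 14.4, 30.6, 5.1 and 15.3 normalised reads in any library. The part of these markers in Lama4 and the other members higher in shTet2 was not tested.

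Among 100 other tested genes of the same pathways (basement membrane proteins, receptors, dystroglycan glycosylation, collagen folding, adhesion, remodelling and interstitial matrix), 0 were called in shTet1 against shScr, 1 in shTet2 against shScr and 5 in shTet2 against shTet1. Of all tested genes, 0.0718%, 0.39% and 4.24% were called in these comparisons, in the same order. Ntn1 encodes netrin 1, a laminin-related guidance protein. It had 381 to 693 normalised reads in shScr, 643 to 871 in shTet1 and 197 to 352 in shTet2, and fell by 0.99 in shTet2 against shScr (adjusted p = 0.0219) and by 1.40 against shTet1 (adjusted p = 0.000182). Ddr2, a collagen receptor kinase, was higher in shTet2 than in shTet1 by 1.41 (adjusted p = 0.0194), with 253 to 775 normalised reads against 89.5 to 272. Plat, the tissue plasminogen activator, was higher by 1.16 (adjusted p = 0.0131; 38.4 to 116 against 11.5 to 36.1 normalised reads) and Serpine2, an inhibitor of such proteases, by 0.83 (adjusted p = 0.00931; 517 to 869 against 293 to 445). Sec23a, a coat protein of the vesicles that carry procollagen out of the endoplasmic reticulum, was higher by 0.50 (adjusted p = 0.0303; 3161 to 4378 against 2327 to 2677). These 5 genes made up 5.0% of the 100, beside the 4.24% of all tested genes given above. With the replicate block, 6 of the 100 were called in shTet1 against shScr, 1 higher and 5 lower, beside 4.8% of all tested genes. In shTet2 against shScr 11 were called, 9 higher and 2 lower, beside 4.31%. In shTet2 against shTet1 19 were called, 15 higher and 4 lower, beside 11.2%.

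Counting was by gene without a stated use of strand. Beside the shared starts of Col4a1 and Col4a2, 6 members share exon bases with another annotated gene, 3 of them over more than 5% of their exons (Lamc3, Nid2 and Plod3); the 4 called members share none.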

How the data were processed

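Directional, rRNA-depleted libraries of total RNA were sequenced from single ends. Per the labels and the study's methods, the authors trimmed the reads with Trim Galore 0.3.3, aligned them to mm9 with TopHat2 2.0.9, counted them per gene and normalised the counts with DESeq2. The values deposited by the authors are variance-stabilised counts, close to log2 of the reads where a gene is well covered and compressed where it is low. The table minimum (4.25) stands for 0 reads. Undoing the transformation gave normalised reads, and whole reads for 100% of values under 1000 reads (tolerance 0.1 reads). The labels name 2 extraction methods without giving that of each library, and the table of repeats was not used here.

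The 39 members, the other gene lists and the markers were chosen with earlier results of these data known. The test covered the 19490 of 26061 genes that exceeded the minimum in 5 or more of the 15 libraries. A single linear model per gene with 1 term, the group, was fitted to the 15 libraries in limma 3.58.1 (R 4.3.3), and variances were moderated with a trend on the mean. P-values were two-sided and adjusted by Benjamini-Hochberg over all tested genes, with a threshold of 0.05. Single members also had an exact permutation test of 5 against 5 libraries (252 permutations). The fit was tested on simulated reads of independent libraries, with changes larger than those of the called members and only in well-covered genes. That test thus did not cover the sizes of difference given here, the low members or libraries that go together by replicate. After group means were subtracted, libraries that share a number correlated across genes at 0.374 to 0.657 for shTet1 with shScr. They did so at 0.330 to 0.731 for shTet2 with shTet1. Libraries of different number could correlate as much, at 0.5775 for shTet1 2 with shScr 1 and 0.5228 for shTet2 1 with shTet1 2. The shTet2 5 library correlated with shTet1 3 at 0.3817, above the 0.3304 of shTet2 3 with shTet1 3. Replicates 1 and 2, and replicate 3 of the knockdowns, were thus not clearly told apart by number. For shTet2 with shScr, same-numbered libraries correlated at 0.008 to 0.769. The low value was that of replicate 3 alone, and the others were at 0.4 or more. The shTet2 3 library correlated more with shScr 5, at 0.2435. The replicate number entered as a block in a single fit to all 15 libraries, so the same block serves every comparison. A split of replicates 1 and 2 from replicates 3 to 5 came from the data, since the labels give no batch. Library values were given for 8 members fixed by name (Col4a1, Col4a2, Lama1, Lamb1, Lamc1, Nid1, Sparc and Fn1) and for each member with an adjusted p under 0.05 with or without the block, and genes of the other lists were named where their adjusted p was under 0.05. Alternatives were the filter, no trend, robust moderation, only the compared groups, array weights, quantile normalisation, median centring, the block, the split as a term and within its parts, limma-voom on recovered reads and leaving out each library; leaving out 4 libraries high in receptor reads and 2 high in Tagln was added after seeing the data. Positions and exon lengths, merged over all transcripts of a gene, are from GENCODE vM1 on mm9, and promoter windows from RefSeq on GRCm38.p6. Depths of 15258291 to 35432425 gene reads gave 108 or more reads in every library for each of the 27 members with a mean of at least 100 normalised reads.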

Additional observations from a re-analysis of the deposited data

Results flagged for a closer look

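In 6 of 117 groups of 5 libraries (39 members in 3 groups), 1 library lay far from the other 4 by Dixon's criterion, about the 5.85 that chance gives at 1 in 20. Values here are on the deposited log2 scale. The highest were Col4a1 in shTet1 replicate 5 at 10.42 (1331 normalised reads; the others 10.01 to 10.12), Sparc in the same library at 12.38 (others 11.45 to 11.69), Lamb1 in shTet2 replicate 3 at 12.64 (others 12.13 to 12.27) and Col4a4 in shScr replicate 4 at 4.85, which is 3 reads where the other 4 libraries had 0. The lowest were Agrn in shScr replicate 3 at 10.05 (others 10.72 to 10.88) and Lamc3 in shTet1 replicate 5 at 4.25, the value of 0 reads (others 4.82 to 4.99).

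The effects of the 2 hairpins against the shared shScr libraries differed for 4 members by the test of the difference itself, which is the comparison of shTet2 with shTet1. That difference was 0.84 for P4ha2, 0.53 for Serpinh1, −0.61 for Lamb2 and −0.60 for Itga6, the effect of shTet2 minus that of shTet1 in log2 units (limma, adjusted p between 0.00220 and 0.0227).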

How the results depend on the processing

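Members called in shTet1 against shScr and in shTet2 against shScr stayed at 0 of 39 under all alternatives but the following. The replicate block gave 1 in the former (Lamb2, 4.8% of all genes), and array weights gave 1 in the latter (Serpinh1, 1.45% of all genes). In shTet2 against shScr, where same-numbered libraries of replicate 3 correlated at only 0.008, the block gave 5, with 4.31% of all genes called. The 5 were Serpinh1, P4ha2, Loxl1, Lama4 and Lamb3, all higher in shTet2. In the same fit 5 of 22 primitive endoderm markers were called (Amn, Cubn, Dab2, Pdgfra and Sox7, all lower). So were 11 of 100 other pathway genes (9 higher, 2 lower). In shTet2 against shTet1, 4 were called, beside 4.24% of all genes. The block gave 9 (11.2% of all genes) and the split as a term gave 5 (Loxl1 added, 6.48% of all genes). The fits within replicates 1 and 2 and within replicates 3 to 5 gave 0 each, with 0 genes and 0.734% of all genes called. Leaving out the 4 libraries high in receptor reads gave 2, with 1.77% of all genes called. Leaving out 1 library gave between 2 and 4, with 2.63% to 4.63% of all genes called. Limma-voom on recovered reads gave 0, 0 and 4, with 0.0872%, 0.292% and 4.62% of all genes called, and no called difference changed sign under any alternative.

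The correlation of Col4a1 with Col4a2 was 0.788 without the 2 farthest libraries, 0.639 within replicates 1 and 2, 0.819 within replicates 3 to 5 and 0.884 without the 4 libraries high in receptor reads, and no adjusted p of r was under 0.05 in these, while that of Spearman's rho was 0.0247 and 0.0249 in the first and last. Lama1 with Gata6 gave 0.587, 0.504, 0.643 and 0.794 in the same order, with an adjusted p of rho of 0.0249 in the last and no other under 0.05. With median centring r was 0.873 and 0.778, both past the test, and the adjusted p of rho was 0.00174 and 0.0504. Of the pairs that had not passed, 3 changed sign, Lama1 with Lamb1 (−0.32) and Col4a1 with Lama1 (−0.187) within replicates 3 to 5, and Lama1 with Sparc without the 2 farthest libraries (−0.166), within replicates 1 and 2 (−0.327) and within replicates 3 to 5 (−0.088). These subsets hold fewer libraries than the whole, and within replicates 1 and 2 the permutations are too few for any correlation to pass. The 12 members under 100 normalised reads rest on few reads, so a change in them could be missed at this depth.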
